A study of Homo sapiens with 2 samples.

Results

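The 35 genes described here encode zinc-finger proteins and lie in a cluster on the long arm of human chromosome 19, in bands 19q13.41 to 19q13.42, from ZNF649 at the centromeric end to ZNF331 at the telomeric end. The genes were chosen by their place in this cluster, by a list drawn up with the differences between these same arrays known. The probe set that stands for each was selected on its mean level in both arrays. All 35 were found among the 18132 genes represented on the array, through 86 probe sets annotated to 1 of them alone. The arrays compared H1299, an established line of human non-small cell lung carcinoma cells, in 2 states. In one, the cells had received the zinc-finger transcription factor EGR1 on pcDNA3.1, and in the other pcDNA3.1 without an insert. Transfection was transient, with a lipid reagent, and RNA was taken 48 hours later. Each group held 1 Affymetrix array, so no difference below has a replicate error, a p-value or a test. Each describes these 2 arrays, and their number limits the precision. Signal from a gene cannot be told apart here into fewer cells expressing it and less RNA per cell.

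Most genes of this cluster encode Krüppel-associated box (KRAB) zinc-finger proteins, a primate-rich family that grew by tandem duplication. Their arrays of C2H2 fingers bind DNA, often in transposable elements, and their KRAB domain recruits the corepressor TRIM28 (KAP1), which brings in the histone methyltransferase SETDB1 and HP1 proteins to silence chromatin. Because the genes are copies of one another, probes for one can bind transcripts of its neighbours. EGR1, the transfected factor, is itself a C2H2 zinc-finger protein and binds GC-rich sites in promoters.

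The deposited log2 levels are RMA values, that is, background-corrected, normalized between arrays and combined into 1 value per probe set. A gene was read from its brightest probe set, the one with the highest mean of both arrays, and the difference is the log2 level in the EGR1 array minus that in the empty-vector array. Signal under 5.22 on the log2 scale, below which the means of 40% of probe sets lie, is called dim, and that value the floor. Across all 49395 probe sets the median level was 5.77 without EGR1 and 5.79 with it. Of the 6 EGR1 probe sets 2 were higher in the EGR1 array, with log2 differences of 3.73 and 2.76, and 4 were lower, with differences of -0.39 to -0.20. Where those probe sets lie relative to the plasmid's insert was not established. The brightest of the 6 was among the lower ones, at 10.51 without EGR1 and 10.12 with it. Read from its brightest probe set, as the members were, EGR1 itself was thus 1.31-fold lower. Of the 5 epithelial markers listed, 3 (KRT8, KRT18 and KRT19) were past the floor in both arrays. KRT8 and KRT18 were higher with EGR1, by 2.00 and 1.76 on the log2 scale, KRT19 differed by 0.24, and EPCAM and CDH1, under the floor, differed by -0.39 and -0.29. That list's summed log2 level was 32.2 without EGR1 and 35.5 with it, and whether this bears on any result below was not tested. The lung markers NKX2-1, SFTPB, SFTPC and NAPSA were past it at no more than 6.88, the fibroblast and leukocyte markers were past it in both arrays in 0 of 5 and 0 of 4 measured genes, and the endothelial markers in 3 of 5. The summed log2 level of the 5 endothelial markers was 24.8 without EGR1 and 24.9 with it.

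The zinc-finger genes of the cluster went both ways. By the brightest probe set 23 of 35 (65.7%) lay below 0, 11 lay above it and 1 was equal in both arrays, against 47.9% of all genes below 0 and 47.6% above. The median difference was -0.08 on the log2 scale, against 0 over all genes. At 1.2-fold or more lower there were 9 members (25.7%), against 6.15% of all genes, and at 1.2-fold or more higher there were 5 (14.3%), against 8.82% of all genes. One member was 1.5-fold or more lower, against 0.265% of all genes, and 0 were 1.5-fold or more higher, against 0.86%. None reached 2-fold lower (0.00552% of all genes) or 2-fold higher (0.292% of all genes). The members thus stood on both sides of the 1.2-fold lines, and since the list was chosen with these values known, the counts describe it and support nothing further. When each gene was read from its probe sets' mean, 4 members (11.4%) were 1.2-fold or more lower, against 5.11% of all genes, and the median was -0.04. On that reading 2 members (5.71%) were 1.2-fold or more higher, against 6.45% of all genes, so the members' share of higher genes then lay below that of all genes. Closest to the 1.2-fold lines lay ZNF600 (0.27) and ZNF761 (-0.33) beyond them and ZNF808 (-0.26) and ZNF83 (-0.24) between them.

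Many of the members were dim. In 18 of them the brightest probe set was past the floor in both arrays, in 4 it was past in 1 array, and in 13 in neither. The 20 members with a mean past the floor had a median difference of -0.05, with 12 of them below 0 (against 52.8% of all genes past the floor). Of these 20, 4 were 1.2-fold or more lower (20.0%, against 5.85%) and 3 were 1.2-fold or more higher (15.0%, against 7.07%). By comparison, the 15 under the floor had a median of -0.19. Of these 15, 11 lay below 0 (73.3%, against 36.6% of all genes under the floor) and 5 were 1.2-fold or more lower (33.3%, against 6.86%). At 1.2-fold or more higher there were 2 of the 15, a share near the 12.9% of all genes under the floor. All genes past the floor had a median of -0.02 and all genes under it one of 0.05. The brightest signal was that of ZNF83, and the dimmest were those of ZNF534 and ZNF350. RMA gives no detection call, so whether a dim gene was expressed at all is not known.

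**Figure D1:**
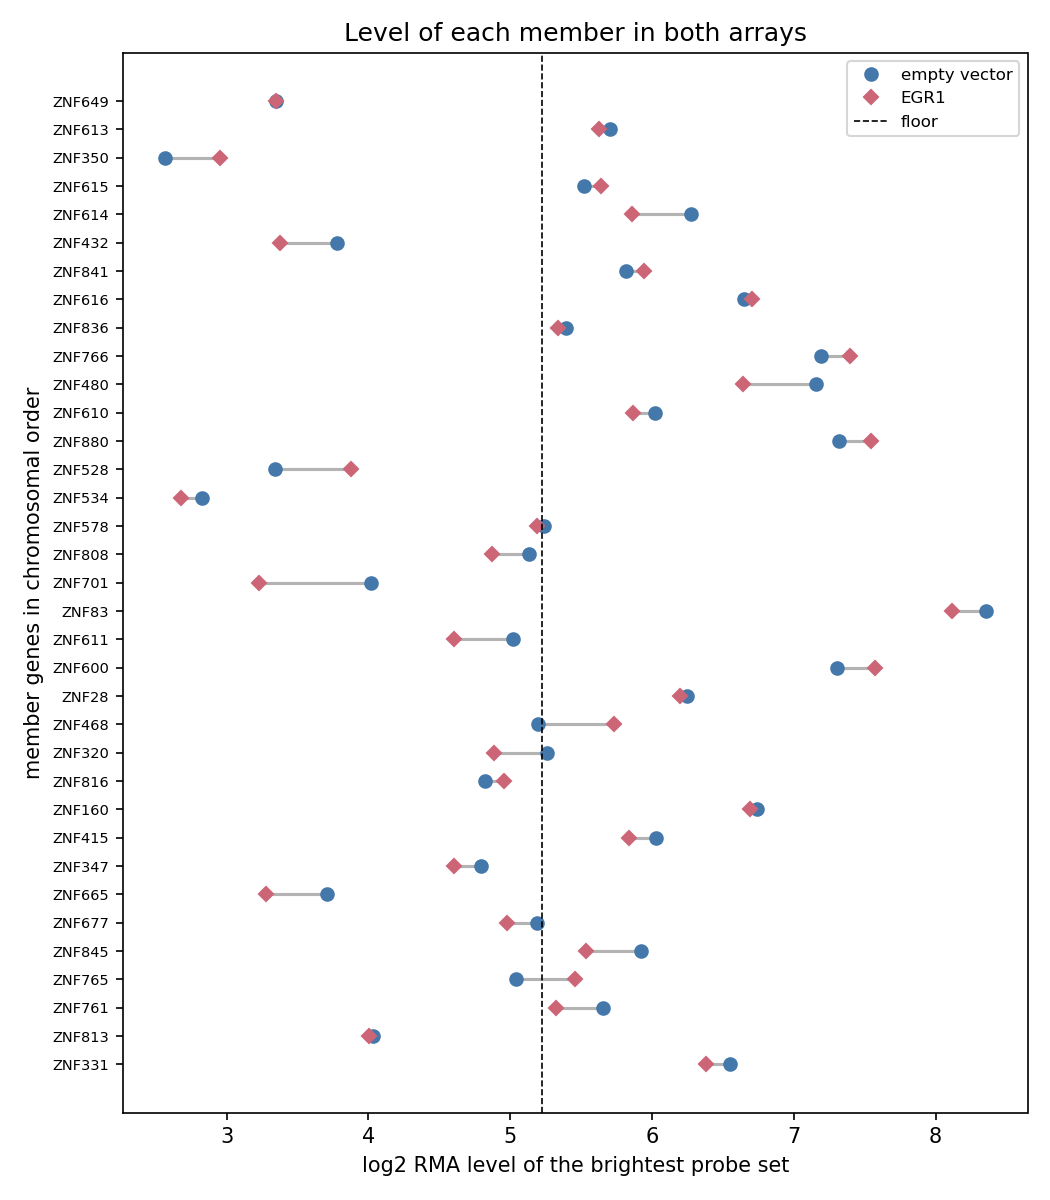
Log2 RMA level (x axis) of the brightest probe set of each of the 35 members in chromosomal order (y axis, ZNF649 at the top and ZNF331 at the bottom), in the empty-vector array (circles) and the EGR1 array (diamonds), 1 array each. The dashed line is the floor at 5.22; 13 members lie left of it in both arrays, and the widest gap is that of ZNF701, from 4.02 to 3.23.

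In 7 of the 27 members with 2 or more probe sets (25.9%) all probe sets lay lower in the EGR1 array, a share near the 22.9% of all genes with several probe sets, and no member had all its probe sets above 0, against 18.7% of all genes. ZNF480 read 7.16 on the log2 scale without EGR1 and 6.64 with it, a difference of -0.52, or 1.43-fold lower. Its second probe set read 7.01 and 6.52, and all 4 of its probe sets differed by -0.52 to -0.20. ZNF480 therefore had the largest difference of any member past the floor in both arrays, and its probe sets did not overlap 0. ZNF614 read 6.27 and 5.86, a log2 difference of -0.41 or 1.33-fold lower. Its 4 probe sets ranged from -0.41 to -0.11, so all were lower but by unequal amounts. ZNF845 read 5.92 and 5.53 (1.31-fold lower), and its other probe set differed by -0.26. ZNF761 read 5.65 and 5.32 (1.26-fold lower), with -0.11 in its other probe set. ZNF320 read 5.26 and 4.88 (1.30-fold lower), just past the floor without EGR1 and under it with EGR1, and its second probe set differed by -0.08. A brighter probe set annotated to both ZNF320 and TMEM192, and so left out, read 7.86 and 7.77 (-0.09). ZNF83, the brightest member, read 8.36 and 8.12 in one probe set and differed by -0.24 there and by -0.27 in its other. Both of its probe sets thus lay close to each other and well past the floor. ZNF808 read 5.13 and 4.87 in its brighter probe set, under the floor in both arrays, and its differences were -0.26 and -0.15. ZNF845, ZNF761, ZNF320 and ZNF808 have _x_at probe sets alone, a type that may also bind related transcripts.

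ZNF701 had the lowest difference of the cluster, from a dim signal. Its 1 probe set read 4.02 in the empty-vector array and 3.23 after EGR1 transfection, a log2 difference of -0.79 or 1.73-fold lower. Only 0.0441% of all genes had a lower difference by their brightest probe set. Both levels lay under the floor and no second probe set measures the gene, so the value has no check within the arrays. ZNF611, described as a binder of SVA retrotransposons, read 5.02 and 4.60, a difference of -0.41, again under the floor in both arrays. Its other probe sets differed by 0.14 and -0.16, both from dimmer signal. ZNF665 read 3.71 and 3.28 (-0.43), and its 4 probe sets ran from -0.65 to 0.43, the widest spread of any member. ZNF432, a protein that binds poly(ADP-ribose) and takes part in DNA repair, had 1 probe set, which read 3.78 and 3.38 (1.32-fold lower). The largest differences among dim members therefore rested on single or discordant probe sets.

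The 5 members 1.2-fold or more higher in the EGR1 array had no second probe set that was as far above 0. ZNF468 read 5.19 without EGR1 and 5.73 with it, a log2 difference of 0.54 or 1.45-fold higher. Its other probe sets differed by 0.04 and -0.29. ZNF528 read 3.34 and 3.88 (1.45-fold higher) under the floor, and its second probe set, at a similar level of 3.48 and 3.42, differed by -0.07. ZNF765 read 5.04 and 5.46, a difference of 0.42 or 1.34-fold higher. That probe set was chosen by the last digits only, since 3 of its probe sets had a mean level of 5.25. The other probe sets at that level were equal in both arrays or differed by 0.0017, and the dimmer one of type _a_at differed by -0.23. Without probe sets of the types _x_at and _s_at, ZNF765 thus turned to -0.23. ZNF350, also known as ZBRK1, is a repressor that acts with BRCA1 on the stress gene GADD45A. Its 1 probe set read 2.56 and 2.95, a difference of 0.39 far under the floor, and a probe set of another gene held exactly the same pair of values. ZNF600 read 7.31 and 7.57 (a difference of 0.27) in its 1 probe set, of the _s_at type. The RefSeq gene models of ZNF600 and its neighbour ZNF28 overlap, as do those of ZNF610 and ZNF880, so signal of each pair cannot be assigned with certainty.

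**Figure D2:**
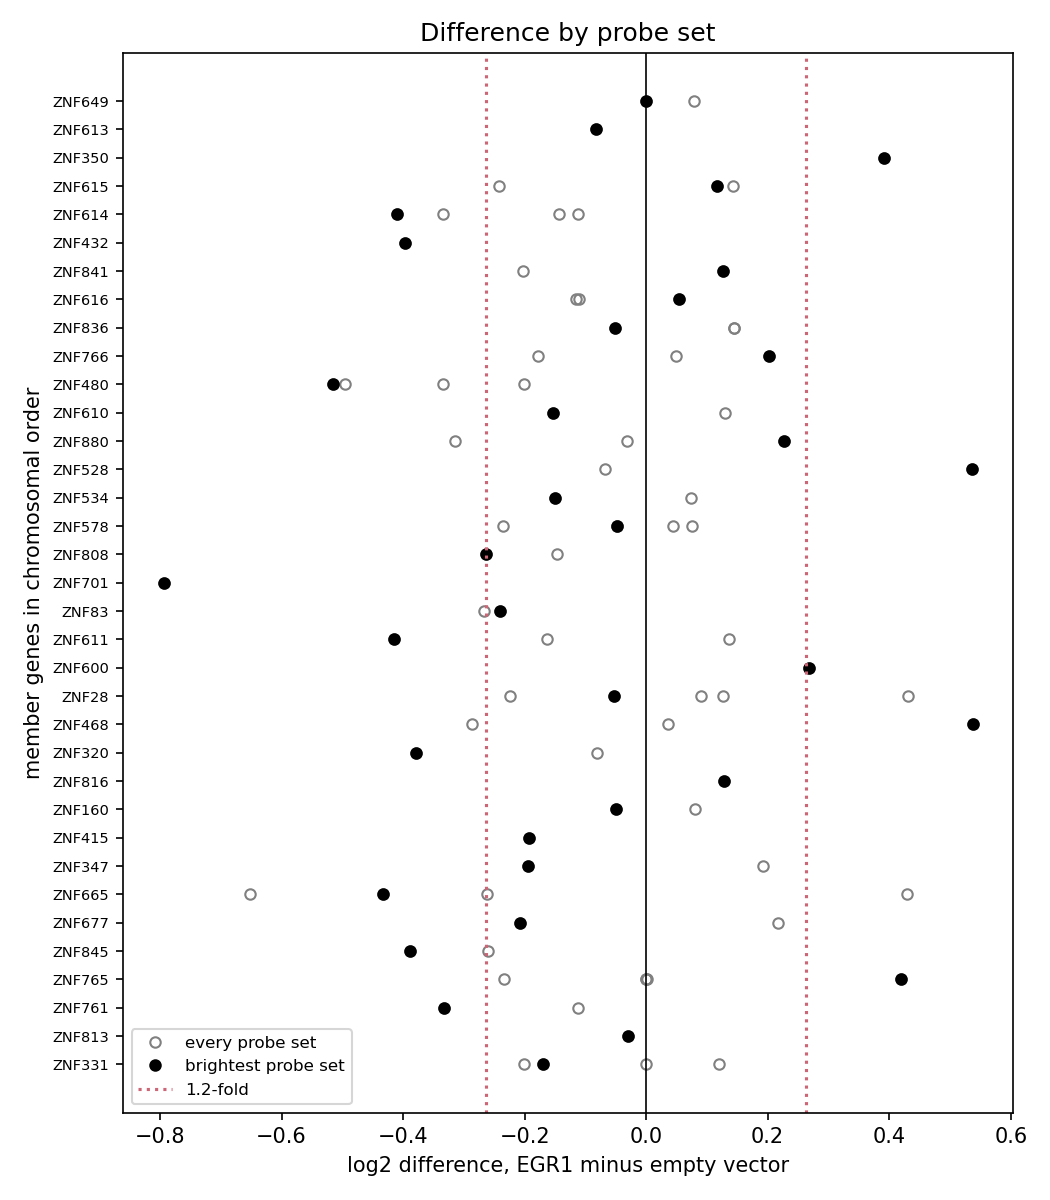
Log2 difference, EGR1 minus empty vector (x axis), of all 86 probe sets of the 35 members in chromosomal order (y axis). Filled points are the brightest probe set of each gene, open points the others, and dotted lines mark 1.2-fold; ZNF480 and ZNF614 lie left of 0 in all 4 of their probe sets, whereas ZNF665, ZNF468 and ZNF28 have probe sets on both sides.

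Probe sets of one member disagreed often. In 19 of the 27 members with several probe sets (70.4%) they lay on both sides of 0, against 49.2% of all genes with several. The pooled SD of the log2 difference within a gene was 0.23 over the members and 0.18 over all genes. It was 0.18 for members and 0.15 for all genes when only probe sets past the floor were used. The SD covers probe-level scatter alone and leaves out the error between cultures, transfections and arrays. Probe sets of the types _x_at and _s_at made up 48.8% of those of the members and 29.0% of all probe sets, and in 9 members there was no other type. The median difference was -0.06 for the 34 _x_at probe sets of the members, -0.10 for the 8 of type _s_at, -0.11 for the 25 of type _a_at and -0.05 for the 19 of type _at. The medians of all 4 types were thus below 0. Over all probe sets they were 0 for _x_at, _a_at and _at and -0.03 for _s_at. Of the 86 probe sets 4 (4.65%) were equal in both arrays to the last digit, against 5.29% of all probe sets, and 10 (11.6%) shared their exact pair of values with a probe set of another gene, against 6.75% of all. The part of shared probes or of such ties in any difference was not tested.

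Several better-known members differed little. ZNF649, described as a repressor of serum-response and AP-1 reporter genes, read 3.35 in both arrays, and its second probe set differed by 0.08. ZNF415, which in reporter assays lowers AP-1 and p53 activity, read 6.03 and 5.84 in 1 probe set (1.14-fold lower). ZNF160, linked to the silencing of the receptor gene TLR4, read 6.74 and 6.69, with a difference of 0.08 in its dim second probe set. ZNF677, a gene known to be silenced by promoter methylation in non-small cell lung cancer, read 5.19 and 4.98 (-0.21) in one probe set and differed by 0.22 in the other, both under the floor. ZNF331, an imprinted gene first found at a breakpoint in thyroid adenomas, read 6.55 and 6.38 where its signal was brightest, and its 4 probe sets differed by -0.20 to 0.12, with 1 equal in both arrays. Of these 5 members, ZNF649, ZNF160, ZNF677 and ZNF331 had probe sets that differed in sign or lay at 0.

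The remaining members lay within 1.2-fold of 0 by their brightest probe set. Of the brighter ones, ZNF880 read 7.32 and 7.54 (1.17-fold higher), but a second probe set at 7.31 and 7.28 differed by -0.03 and a dimmer one by -0.31. ZNF766 read 7.19 and 7.39 (1.15-fold higher), with 0.05 and -0.18 in its other probe sets. ZNF616 read 6.65 and 6.70 with a difference of 0.05, and its other probe sets both lay below 0, at -0.12 and -0.11. None of these genes had a direction that all their probe sets shared. ZNF28 differed by -0.05 in its brightest probe set and by 0.43 in the next, with its 5 probe sets spread from -0.22 to 0.43. ZNF610 differed by -0.15 and 0.13, ZNF836 by -0.05 in the brightest of 3, ZNF841 by 0.13 and -0.20, and ZNF615 by 0.12 in the brightest of 3, with -0.24 in the dimmest. ZNF613 had 1 probe set at -0.08. The dim members ZNF347 (-0.19 and 0.19), ZNF534 (-0.15 and 0.07), ZNF816 (0.13 in 1 probe set), ZNF813 (-0.03 in 1 probe set) and ZNF578 (-0.05 in the brightest of 5) complete the list. In ZNF347 the probe sets thus differed by nearly equal amounts in opposite directions.

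Neighbours along the chromosome had like and unlike signs about equally often. Of 33 neighbouring pairs in which neither gene was at 0, 17 had the same sign, and the correlation between the differences of neighbours over all 34 pairs was -0.02 (Pearson, a description of these 2 arrays). The longest stretch on one side was 6 genes, ZNF534 to ZNF611, all below 0. The median difference was -0.03 over the first 12 genes from the centromeric end, -0.10 over the next 12 and -0.19 over the last 11, of which 9 lay below 0. Whether these medians differ could not be tested with 1 array per group.

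Promoter sequences were set beside the differences because the cluster grew by duplication. RefSeq promoter sequences (GRCh38.p14) matched 29 of the 35 members, and the 250 bases upstream of the start were used. The median identity over all 406 pairs of members was 51.5% in global alignments. At 75% identity or more, 9 members were linked into 1 group: ZNF808, ZNF701, ZNF83, ZNF611, ZNF468, ZNF845, ZNF765, ZNF761 and ZNF813. Within it the median identity was 78.2%. The following 6 upstream sequences are shown because they are 76.6% to 86.0% identical to each other, yet belong to the member with the lowest difference, to others that were lower, and to ZNF765 and ZNF468, which were higher. They run 5′ to 3′ toward the start, and capitals mark GGGCGG or its reverse complement.
ZNF701 (chr19:52570037-52570286, plus strand, difference -0.79): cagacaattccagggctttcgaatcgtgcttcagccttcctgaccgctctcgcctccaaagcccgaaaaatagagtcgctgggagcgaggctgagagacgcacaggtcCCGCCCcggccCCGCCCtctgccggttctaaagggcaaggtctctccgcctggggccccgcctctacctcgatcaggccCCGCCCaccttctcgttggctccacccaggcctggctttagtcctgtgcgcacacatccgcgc
ZNF845 (chr19:53333499-53333748, plus strand, difference -0.39): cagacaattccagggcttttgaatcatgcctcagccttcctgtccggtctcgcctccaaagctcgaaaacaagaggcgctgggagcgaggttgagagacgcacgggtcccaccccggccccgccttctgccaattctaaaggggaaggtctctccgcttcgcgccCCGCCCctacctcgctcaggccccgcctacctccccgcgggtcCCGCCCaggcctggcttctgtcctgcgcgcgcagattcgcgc
ZNF761 (chr19:53431734-53431983, plus strand, difference -0.33): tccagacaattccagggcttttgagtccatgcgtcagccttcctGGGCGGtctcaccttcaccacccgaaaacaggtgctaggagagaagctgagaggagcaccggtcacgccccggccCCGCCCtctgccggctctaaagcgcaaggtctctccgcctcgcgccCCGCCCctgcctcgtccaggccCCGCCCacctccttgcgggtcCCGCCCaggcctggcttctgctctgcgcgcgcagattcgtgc
ZNF611 (chr19:52735045-52735294, minus strand, difference -0.41): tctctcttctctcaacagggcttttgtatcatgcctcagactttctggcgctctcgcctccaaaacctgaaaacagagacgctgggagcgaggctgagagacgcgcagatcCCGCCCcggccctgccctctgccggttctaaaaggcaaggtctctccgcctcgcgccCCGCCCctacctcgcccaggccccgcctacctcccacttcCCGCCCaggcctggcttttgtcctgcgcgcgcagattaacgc
ZNF765 (chr19:53394899-53395148, plus strand, difference 0.42): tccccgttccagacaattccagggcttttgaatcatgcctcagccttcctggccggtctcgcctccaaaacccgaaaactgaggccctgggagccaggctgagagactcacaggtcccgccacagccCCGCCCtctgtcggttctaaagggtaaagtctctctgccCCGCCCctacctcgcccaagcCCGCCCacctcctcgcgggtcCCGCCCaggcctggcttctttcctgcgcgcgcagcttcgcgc
ZNF468 (chr19:52857620-52857869, minus strand, difference 0.54): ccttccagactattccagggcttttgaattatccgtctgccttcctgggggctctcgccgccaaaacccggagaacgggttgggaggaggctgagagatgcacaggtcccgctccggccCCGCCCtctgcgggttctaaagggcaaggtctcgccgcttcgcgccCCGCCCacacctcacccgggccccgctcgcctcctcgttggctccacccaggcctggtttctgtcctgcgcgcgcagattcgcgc

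By their brightest probe sets, members with similar promoters had differences of both signs. ZNF701 and ZNF468 have 80.4% identical upstream sequences and differed by -0.79 and 0.54. ZNF845 and ZNF765 are 83.8% identical and differed by -0.39 and 0.42. That contrast in sign rests on the probe set chosen for ZNF765, which was -0.23 without _x_at and _s_at probe sets and 0.037 by the mean of its probe sets. ZNF468, the other linked member above 0, was 0.095 by the mean of its probe sets, and its other probe sets were 0.04 and -0.29. Of the 27 pairs at 75% identity or more, 16 had the same sign. These pairs are drawn from the same 9 genes and are not independent, and each pair of unlike sign includes ZNF765 or ZNF468. In the linked group 7 of 9 members lay below 0, with a median of -0.26, and among the other 20 members with a promoter sequence 12 lay below 0, with a median of -0.05. The group was formed after the values were known, and no test was made.

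**Figure D3:**
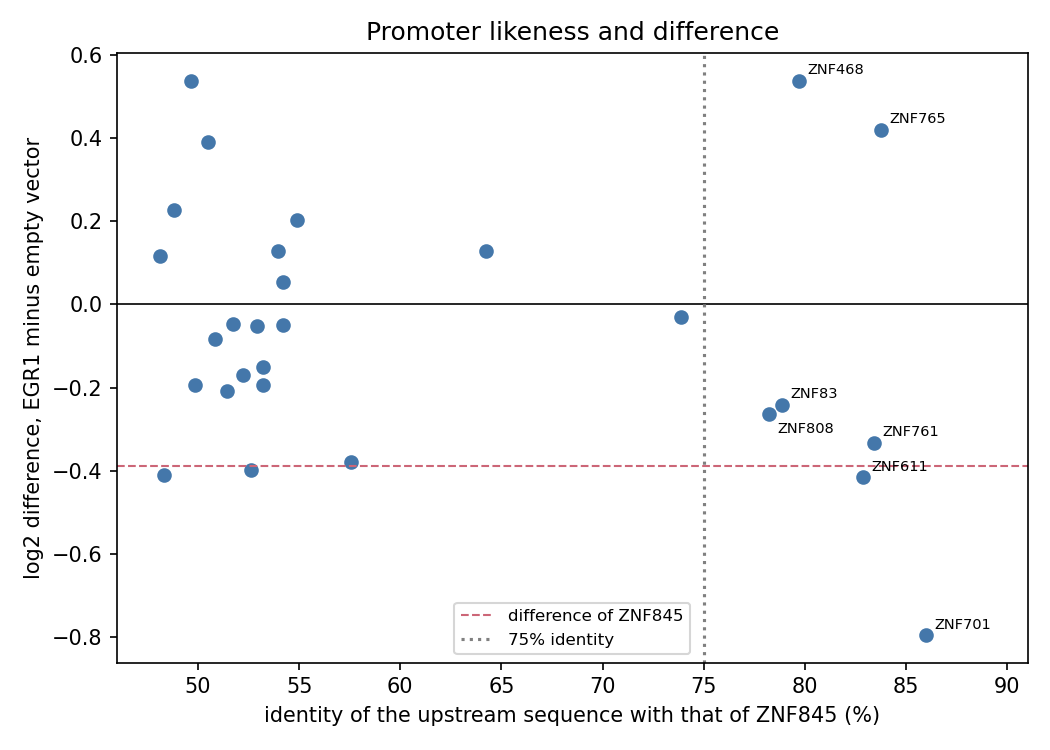
Identity of each member's 250 upstream bases with those of ZNF845, in % (x axis), against its log2 difference, EGR1 minus empty vector (y axis), for the 28 other members with a promoter sequence. The dashed line is the difference of ZNF845 (-0.39) and the dotted line 75% identity; to the right of it ZNF765 (0.42) and ZNF468 (0.54) lie above 0 and ZNF701, ZNF611, ZNF761, ZNF808 and ZNF83 below.

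The GC box GGGCGG, a core bound by SP and KLF factors, was present on either strand in the upstream sequence of 24 of 29 members (82.8%). It was present in 42.3% of all 27305 promoters and in 59.8% of those of 408 other ZNF genes. The 5 members without it, ZNF613, ZNF350, ZNF615, ZNF614 and ZNF331, stand at the ends of the cluster, and their differences ran from -0.41 to 0.39. Those with it had a median difference of -0.10 and those without one of -0.08. The members' upstream sequences had a median GC content of 63.6%, against 58.0% of all promoters, and the part of base composition in these shares was not tested. The EGR1 core was searched as GCGNGGGCG on both strands. It overlaps GGGCGG where a G follows it. It was found in 2 of 29 members (6.90%), against 8.25% of all promoters, and the stricter GCGTGGGCG in 0 of 29, against 0.710% of all. Both matches are shown, with the match in capitals.
ZNF320 (chr19:52897695-52897944, minus strand, difference -0.38): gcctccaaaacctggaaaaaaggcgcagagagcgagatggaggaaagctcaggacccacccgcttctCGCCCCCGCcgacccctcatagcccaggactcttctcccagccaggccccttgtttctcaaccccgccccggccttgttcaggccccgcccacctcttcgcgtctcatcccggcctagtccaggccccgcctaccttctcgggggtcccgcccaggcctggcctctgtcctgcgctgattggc
ZNF816 (chr19:52962882-52963131, minus strand, difference 0.13): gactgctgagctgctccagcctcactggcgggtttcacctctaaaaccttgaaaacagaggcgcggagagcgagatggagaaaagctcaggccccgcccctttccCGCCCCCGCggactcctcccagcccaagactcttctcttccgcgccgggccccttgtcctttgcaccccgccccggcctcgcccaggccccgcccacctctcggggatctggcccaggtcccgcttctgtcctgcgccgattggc
These 2 sequences are 62.2% identical, and the genes differed in opposite directions. A match describes letters in this window and is not a shown binding site.

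Other zinc-finger clusters of chromosome 19 were set beside the members. By median, the 19q13.41 genes lay less far below 0 than those of 19q13.12 and 19q13.31, and slightly less far than those of 19p12. In the clusters of 19q13.12 and 19q13.31, 49 of 51 measured genes (96.1%, against 47.9% of all genes) lay below 0, with a median of -0.31. Of the 51, 29 (56.9%, against 6.15% of all genes) were 1.2-fold or more lower. ZNF283, ZNF383, ZNF45 and ZFP82 had the largest differences there among genes past the floor, from 1.85-fold to 1.57-fold lower. In the 19p12 cluster 21 of 26 measured genes (80.8%, against 47.9% of all genes) lay below 0, with a median of -0.12. There 8 (30.8%, against 6.15%) were 1.2-fold or more lower. ZNF90 (1.59-fold lower), ZNF100 (1.47-fold), ZNF726 (1.35-fold) and ZNF43 (1.32-fold) had the largest differences there among genes past the floor. The median level of the members (5.46) was near that of the 19p12 genes (5.18) and below that of the 19q13.12 and 19q13.31 genes (6.56), and the part of signal level in these differences was not tested. With 1 array per group the difference between clusters itself could not be tested. At 1.2-fold or more higher there were 5 of 35 members, 1 of 26 genes of 19p12 and 1 of 51 of 19q13.12 and 19q13.31, against 8.82% of all genes. The members' count was 2 of 35 both by the mean of the probe sets and by the dimmest probe set.

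**Figure D4:**
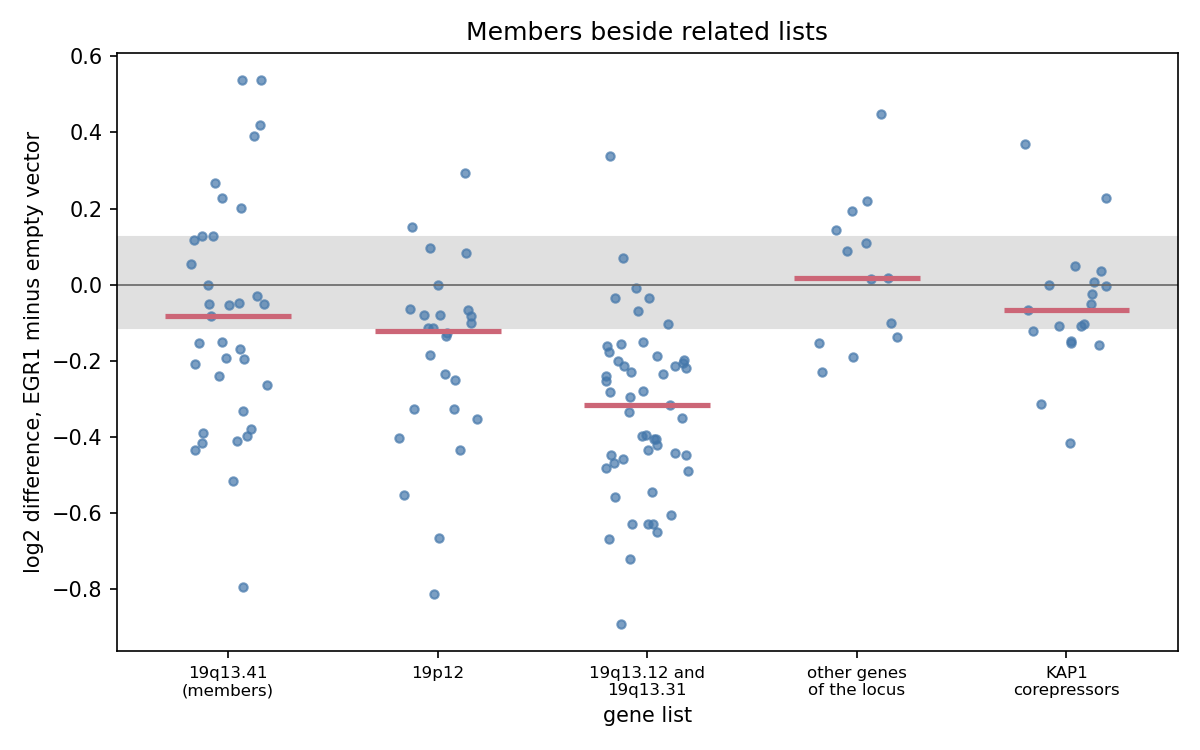
Log2 difference, EGR1 minus empty vector (y axis), of each gene (points, spread sideways for visibility) in the 19q13.41 members, 2 related sets of zinc-finger clusters, other genes of the same locus and KAP1 corepressor genes (x axis). Red bars are medians (-0.08, -0.12, -0.31, 0.02 and -0.07), and the grey band spans the middle of all genes, from the lower quartile at -0.11 to the upper quartile at 0.13.

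Genes of other families in and beside the cluster had a median difference of 0.02, with quartiles of -0.14 and 0.14, against -0.11 and 0.13 over all genes. Of 17 such genes listed 13 were measured, 8 of them under the floor, and 5 lay below 0 and 8 above. PPP2R1A, the scaffold subunit of protein phosphatase 2A, lies within the cluster and read 9.02 and 9.04 (it was named after its values were seen). The calcium-channel gamma subunits CACNG7 (0.22), CACNG6 (0.19) and CACNG8 (0.09) and the myeloid-associated gene MYADM (0.14) were the 4 past the floor with the largest differences. None of the 13 was 1.2-fold or more lower, against 6.15% of all genes, and VN1R2, at 0.45 far under the floor and outside the rule for named genes, was the 1 that was 1.2-fold or more higher.

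By the brightest probe set, the corepressor machinery that KRAB zinc-finger proteins use had a median difference close to that of the members. All 19 listed genes were past the floor, and 13 lay below 0 (68.4%, against 52.8% of all genes past the floor) and 5 above. The median was -0.07, against -0.08 for the members and -0.02 for all genes past the floor. After lowess it was -0.030, against -0.11 for the members, so the closeness depended on the processing. TRIM28 itself read 8.63 without EGR1 and 8.60 with it, and SETDB1 7.38 and 7.39. Both core components, named after their values were seen, thus differed by -0.02 and 0.01. ATF7IP, the partner that stabilises SETDB1, read 7.41 and 6.99 (1.33-fold lower), and its 4 probe sets ranged from -0.49 to -0.16. TASOR, a subunit of the HUSH silencing complex, read 8.26 and 7.94 (1.24-fold lower), with -0.31 to -0.16 over 3 probe sets. The DNA methyltransferase DNMT3A was 1.29-fold and the remodeller CHD4 1.17-fold higher where their signal was brightest, and probe sets of both went both ways. ATF7IP and TASOR were the 2 of 19 (10.5%) at 1.2-fold or more lower, against 6.15% of all genes and 25.7% of the members.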

How the data were processed

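H1299 RNA (2 µg of total RNA per array, 1 array per group) was hybridised to Affymetrix arrays, per the labels' protocols. Values were deposited as log2 levels per probe set, and the submitters' processing notes name RMA. Its settings, and how many arrays entered it, are not stated in the sources at hand. Probe sets were named by the platform annotation, with symbols updated by Entrez ID to RefSeq (GRCh38.p14), and those with several genes were left out. The brightest probe set stood for each gene, without further normalization. Differences were counted at 1.2-, 1.5- and 2-fold beside all 18132 genes. Members, lists and the naming rule were chosen with earlier results of these data known. The rule named all 35 members, EGR1 and, in each comparison list, at most 4 genes past the floor, by size of difference. Promoter identity came from global alignments (biopython 1.88) and lowess curves from statsmodels 0.14.6. The procedure was tested on simulated data with 2-fold changes shared by all probe sets of a gene, scored at 1.5-fold. These changes were larger than that of any member, and the simulated probe sets scattered less than the real ones. The simulation therefore does not bear on the counts at 1.2-fold. In all, 7 alternatives were run, and 1 more that was added after seeing the data.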

Additional observations from a re-analysis of the deposited data

How the results depend on the processing

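With each gene read from its probe sets' mean, the members' median was -0.038. On that reading 4 members were 1.2-fold or more lower (11.4%, against 5.11% of all genes) and 2 higher (5.71%, against 6.45% of all genes). Without _x_at and _s_at probe sets 26 members were measured, 15 of them below 0 (57.7%, against 47.4% of all genes). ZNF765 then turned to -0.23, ZNF28 to 0.43, ZNF534 to 0.07 and ZNF160 to 0.08, and the median of the 19q13.12 and 19q13.31 clusters was -0.34. With the dimmest probe set, that of the lowest mean level, 7 members were 1.2-fold or more lower (20.0%, against 9.16% of all genes). There 2 were 1.5-fold or more lower, for which the share over all genes was not counted. At 1.2-fold or more higher there were 2 (5.71%, against 9.77% of all genes). The members' share of higher genes then lay below that of all genes. With the floor at percentile 40 there were 20 members, 12 below 0 (median -0.052), 4 at 1.2-fold and 0 at 1.5-fold lower, and 3 at 1.2-fold higher. At percentile 60 there were 8 members, 4 below 0, and the median turned to 0.0022. At 1.2-fold 1 was lower (12.5%, against 5.58% of all genes past that floor) and 1 higher (12.5%, against 5.49%), and 0 were lower at 1.5-fold. There 58.2% of all genes lay below 0, with a median of -0.034, so the members then lay above all genes. These counts fall in part because fewer genes were used. Without probe sets whose pair of values another gene shared, an alternative added after seeing the data, the median was -0.12. For other genes of the locus the median turned to -0.0012 with the mean of all probe sets and was 0.073 after lowess, and for the corepressor genes it was -0.030 after lowess; the cause was not tested. After lowess all 35 members moved by less than the pooled SD of 0.15, and with the mean of all probe sets 12 moved by more. No paired analysis was possible because each group held 1 array. With 1 array per group no replicate could be left out, and dim signal limits 13 members.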

Other observations

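Zinc-finger genes elsewhere in the genome lay closer to 0 than those of chromosome 19. Of 248 measured ZNF genes on other chromosomes 137 lay below 0 (55.2%), with a median of -0.03, and 33 were 1.2-fold or more lower. Of 192 other ZNF genes on chromosome 19, which include those of the related clusters, 129 lay below 0 (67.2%), with a median of -0.14. There 57 were 1.2-fold or more lower (29.7%). Both sets thus had larger shares at 1.2-fold or more lower than all genes (6.15%). At 1.2-fold or more higher there were 9 of the 248 and 6 of the 192, both smaller shares than the 8.82% of all genes. The differences between these sets were not tested.

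Genes listed for a link to endogenous retroviruses were dim. Of 8 listed 4 were measured, all under the floor, and their log2 differences ran from -0.05 to 0.21, with 1 gene equal in both arrays.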
